A study of Mus musculus with 36 samples.

Results

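Mitochondrial ribosomal proteins were followed through adipogenic differentiation of mouse embryonic fibroblasts (MEFs) that were wild-type (WT), Mfn1-/- or Mfn2-/-. The members were taken by name, as every gene of the deposited table whose symbol starts with Mrpl or Mrps followed by a digit. This gave 79 of 14761 genes, of which 49 carry large-subunit names (Mrpl) and 30 carry small-subunit names (Mrps). The naming rule uses no measured value, although the part was chosen with earlier results of these data known. Of the 79, 48 large-subunit and 29 small-subunit symbols are coding genes, and the other 2, Mrpl23-ps1 and Mrps36-ps1, carry pseudogene symbols.

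The 36 libraries fall into 12 groups of 3. Days -2, 0, +3 and +8 were sampled for Mfn1-/- and for WT replicates A to C, and days -2 and +8 for Mfn2-/- and for WT replicates D to F. Cells were confluent at day -2, and from day 0 all groups received the same cocktail of rosiglitazone, IBMX, dexamethasone, insulin, pantothenic acid and biotin, with IBMX and dexamethasone left out of the later media. Each genotype was 1 purchased cell line, so that genotype and line cannot be told apart, and the replicates are repeat experiments on that line. Mfn1 and Mfn2 encode the mitofusins, GTPases of the outer mitochondrial membrane that fuse mitochondria.

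The mitochondrial ribosome translates the few proteins that mitochondrial DNA encodes, all of them subunits of the oxidative phosphorylation complexes. Its RNAs are transcribed inside the organelle, whereas its proteins are encoded in the nucleus, made on cytosolic ribosomes and imported. The large subunit joins amino acids and holds the exit tunnel, and the small subunit decodes the mRNA. Roughly equal amounts of each protein are needed for assembly, and fat cells gain mitochondria as they differentiate.

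To show what lies before these genes, the sequence from 250 bases before to 50 bases after the annotated start was read from RefSeq (GRCm38.p6) for the 68 of 79 members that matched, which gave 74 windows. Promoters of this family are typically rich in CpG and poor in TATA boxes, and the median window held 58.5% G and C and 21 CpG pairs, against 52.7% and 7 over all 32851 windows. The letters GCGCANGCG, the core bound by the respiratory factor NRF1, were present on either strand in 21.6% of the member windows and in 6.25% of all windows. The ETS letters CCGGAAGT, bound by GABPA among others, were in 16.2% against 3.89%, the YY1 letters AANATGGCG in 14.9% against 2.38%, and TATAAA in 6.76% against 13.6%. At least 1 of the first 3 motifs was found in 48.6% of member windows and 11.3% of all windows. Each of these 3 motifs contains a CpG, and the sets of windows were not matched for CpG. The part of CpG content in these shares was not tested. A match is a description of the letters and not a bound site. The 4 windows printed here belong to members on which the results turn: Mrpl12, with 1 of the 3 largest rises; Mrpl17, which rose in Mfn1-/- MEFs before day +8; Mrpl27, whose start lies head to head with that of a gene that fell; and Mrps6, which differed in opposite directions in the 2 knockout lines and holds none of the motifs. Capitals mark the NRF1 letters in Mrpl12 and Mrpl17 and the ETS and YY1 letters in Mrpl27.
Mrpl12 (chr11:120484387-120484686, plus strand): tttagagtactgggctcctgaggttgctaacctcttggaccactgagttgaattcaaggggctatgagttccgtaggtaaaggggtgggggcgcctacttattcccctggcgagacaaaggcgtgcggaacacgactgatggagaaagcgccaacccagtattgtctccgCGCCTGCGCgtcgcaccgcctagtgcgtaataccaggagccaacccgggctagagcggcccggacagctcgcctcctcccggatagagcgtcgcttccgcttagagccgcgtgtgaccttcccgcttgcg
Mrpl17 (chr7:105811038-105811337, minus strand): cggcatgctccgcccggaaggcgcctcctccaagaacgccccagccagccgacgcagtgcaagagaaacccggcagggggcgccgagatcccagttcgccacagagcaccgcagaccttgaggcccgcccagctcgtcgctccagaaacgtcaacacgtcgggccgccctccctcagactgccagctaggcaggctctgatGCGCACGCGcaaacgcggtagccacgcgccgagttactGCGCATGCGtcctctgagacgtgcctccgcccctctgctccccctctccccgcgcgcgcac
Mrpl27 (chr11:94653541-94653840, plus strand): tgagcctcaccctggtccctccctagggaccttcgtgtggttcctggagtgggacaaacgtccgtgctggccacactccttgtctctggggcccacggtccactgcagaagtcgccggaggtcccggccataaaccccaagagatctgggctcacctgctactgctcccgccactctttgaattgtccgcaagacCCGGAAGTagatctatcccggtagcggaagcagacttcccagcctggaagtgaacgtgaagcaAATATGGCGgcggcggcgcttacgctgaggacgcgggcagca
Mrps6 (chr16:92058086-92058385, plus strand): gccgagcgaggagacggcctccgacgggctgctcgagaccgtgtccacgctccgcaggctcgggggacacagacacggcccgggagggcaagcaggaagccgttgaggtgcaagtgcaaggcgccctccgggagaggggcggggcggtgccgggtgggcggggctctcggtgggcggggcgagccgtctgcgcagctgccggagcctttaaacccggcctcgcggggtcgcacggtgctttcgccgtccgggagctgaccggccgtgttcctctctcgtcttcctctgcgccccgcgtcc

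Libraries held 8800674 to 37011894 reads in the table (median 12641490.5), of which 31285 to 103067 fell on the members. A level is given either as a normalized count, which is comparable within a knockout line and its WT at 1 day, or as reads per 1000000 reads of the library (RPM). The targeted gene was low where the labels place it, with 1 exception. Mfn1 RNA was at 172 normalized counts in Mfn1-/- against 1343 in WT at day -2 (log2 fold change −2.96), and Mfn2 RNA was at 226 in Mfn2-/- against 942 in WT (−2.06). At day +8, however, the 3 libraries labelled Mfn1-/- held 1152, 754 and 647 normalized counts of Mfn1, against a WT mean of 860 (−0.06, adjusted p = 0.74). The table does not say which exons those reads cover, and every direction given for Mfn1-/- at day +8 rests on the label. At day +3, where Mfn1 was at 195 normalized counts in Mfn1-/- against 1038 in WT, 4 adipocyte markers already summed to 22716 to 31496 in Mfn1-/- against 1874 to 2572 in WT, which is the direction that the labels give at day +8. Fibroblast markers such as Col1a1 and Col3a1 were present in every group. Their list summed to 147652 to 249433 normalized counts in Mfn1-/- at day +8. In Mfn2-/- at day -2 it summed to 86750 to 92902, against 199496 to 217249 in WT D to F. Col1a2 was at a mean of 149 there against 73593 (log2 fold change −9.03), Col1a1 was lower and Col3a1 was not called.

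At day +8 nearly the whole family was higher in the libraries labelled Mfn1-/- than in WT. The reads of all members together made up 7205, 5499 and 5198 RPM in Mfn1-/- libraries A to C, and 2991, 2852 and 2678 in WT A to C. The lowest Mfn1-/- library thus lay well above the highest WT library. Of the 78 members tested, 75 were higher at an adjusted p under 0.01 and none was lower, where 23.5% of all 14293 genes tested were higher. The median log2 fold change of the members was 1.14, a fold of 2.20, with a range from 0.31 to 2.24 and all 78 values above 0, while the median of all genes was −0.07. In Mfn1-/- library A all 78 members lay above every WT library, in B all 78 and in C 77. The same count was not taken over all genes.

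**Figure D1:**
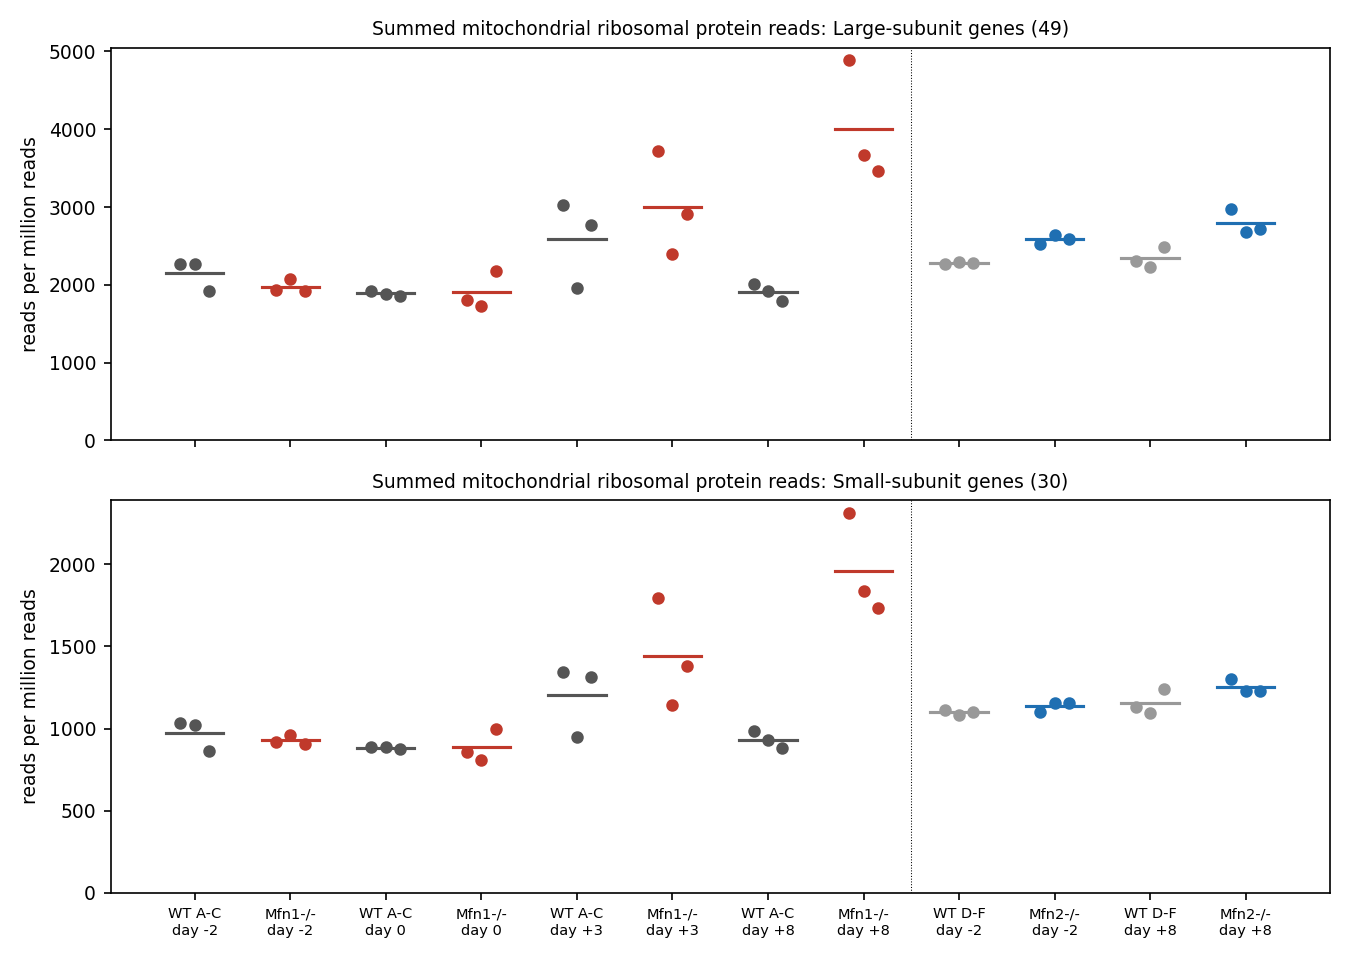
Summed RPM (reads per 1000000 reads of the library) of all large-subunit members (top) and all small-subunit members (bottom), on a linear axis, for each line and day. Points are single libraries and bars are group means. The 3 Mfn1-/- libraries at day +8, at 5198 to 7205 for both subunits together, lie above all the others except 1 Mfn1-/- library of day +3, at 5519.

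Large-subunit members made up the 3 largest changes at day +8 in normalized counts. Mrpl34, a small protein of the large subunit with a bacterial counterpart, was at 1708, 782 and 943 in Mfn1-/- against 215, 214 and 257 in WT, and its log2 fold change was 2.24 ± 0.22 (SE, n = 3 libraries per group, limma adjusted p = 3.96e-10). Mrpl15, a large-subunit core protein, was at 2557, 1866 and 1544 against 466, 472 and 445 (2.07 ± 0.17, limma adjusted p = 2.29e-11). Mrpl12, which forms the flexible stalk to which translation factors bind, was at 4835, 2959 and 2615 against 930, 832 and 650 (2.07 ± 0.23, limma adjusted p = 5.53e-09). In each of these genes the 2 groups were far apart, and library A of Mfn1-/- was the highest.

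The functional centres of the ribosome were included in the rise. Mrps12, of the decoding centre, was at 543, 305 and 314 in Mfn1-/- against 137, 117 and 105 normalized counts in WT (log2 fold change 1.65 ± 0.23). Mrpl11, at the base of the stalk, was at 966, 644 and 741 against 415, 458 and 400 (0.87 ± 0.17). Mrpl58, a peptidyl-tRNA hydrolase built into the large subunit that can release stalled chains, was at 988, 710 and 522 against 373, 282 and 258 (1.25 ± 0.19). Mrpl36, a small zinc-binding protein of the large subunit, was at 432, 323 and 371 against 209, 199 and 181 (0.93 ± 0.19). None of these 4 genes overlapped between the groups, and all passed the test.

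Several members with unusual places in the ribosome also rose, mostly by less than the family median. The Mrps18 paralogs occupy different positions, and despite its small-subunit name Mrps18a is found in the large subunit. Mrps18a was at 1524, 1070 and 916 against 743, 678 and 603 normalized counts (log2 fold change 0.76 ± 0.15, limma adjusted p = 5.59e-05), and with only the 6 libraries of the comparison in the fit it did not pass (limma adjusted p = 0.0137). Mrps18b was at 1078, 659 and 472 against 415, 388 and 357 (0.85 ± 0.22, limma adjusted p = 0.00165), but without Mfn1-/- library A its log2 fold change was 0.53 and no longer passed (limma adjusted p = 0.04). It also fell short with a replicate block (limma adjusted p = 0.012). Mrps18c was at 652, 478 and 435 against 372, 343 and 296 (0.61 ± 0.16, limma adjusted p = 0.00171), and without Mfn1-/- library A it likewise did not pass (0.44, limma adjusted p = 0.0283). A same-strand transcript of uncertain type overlaps 23.2% of the exon bases of Mrps18c, so its reads are uncertain. Mrps30, another large-subunit component with a small-subunit name, was at 1092, 886 and 784 against 494, 523 and 506 (0.84 ± 0.13). Mrps36, which is now seen as a component of the α-ketoglutarate dehydrogenase complex rather than of the ribosome, was at 555, 401 and 284 against 181, 183 and 99.3 (1.42 ± 0.23).

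**Figure D2:**
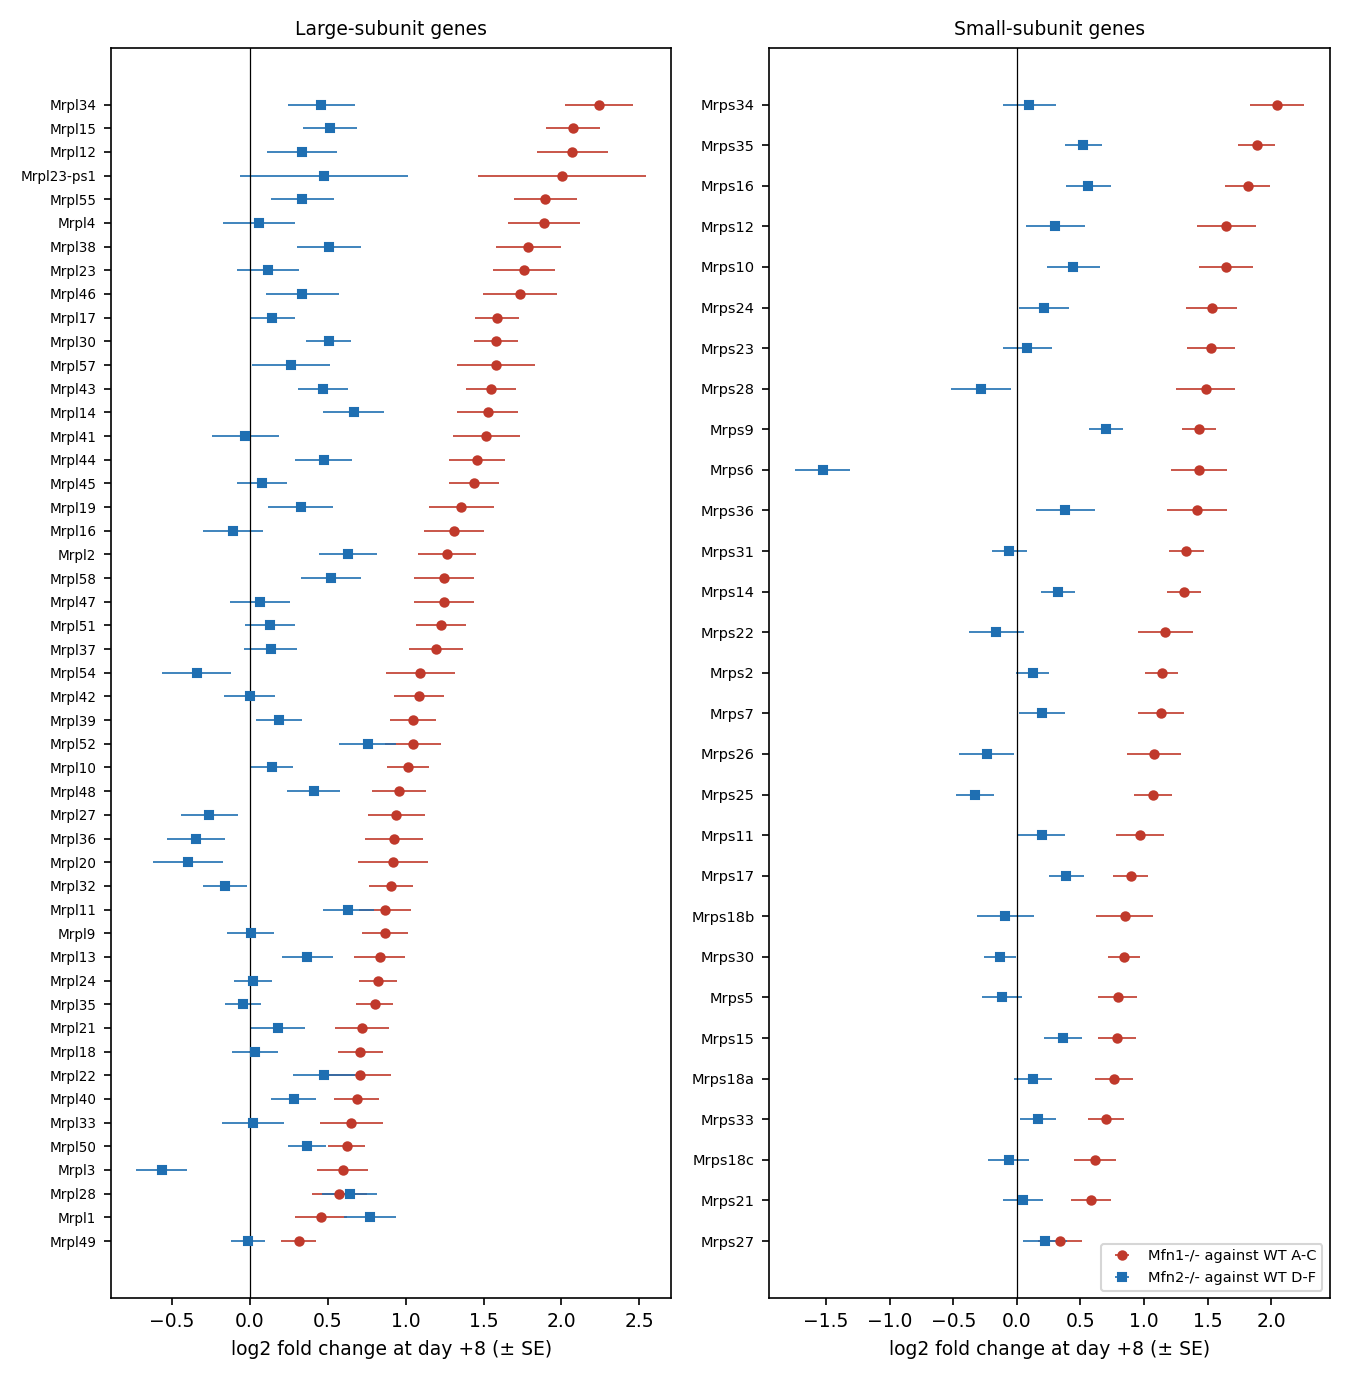
Log2 fold change of each member tested, knockout minus WT at day +8, with its standard error, for Mfn1-/- and Mfn2-/-. Members are grouped by large-subunit and small-subunit name. The Mfn1-/- values run from 0.31 to 2.24, and those of Mfn2-/- from −1.53 to 0.77, with Mrps6 farthest below 0.

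The 3 tested members that were not called at day +8 were also above 0. Mrpl1, of the mobile stalk by which used tRNA leaves, was at 411, 503 and 500 in Mfn1-/- against 302, 364 and 364 normalized counts in WT (log2 fold change 0.45, limma adjusted p = 0.0197). Mrpl49, specific to mitochondrial ribosomes, was at 1554, 1288 and 1320 against 1119, 1084 and 1139 (0.31, limma adjusted p = 0.0152). Mrps27, a pentatricopeptide repeat protein of the small subunit, was at 801, 590 and 480 against 511, 471 and 467 (0.34, limma adjusted p = 0.0871). All 3 were named because they missed the threshold, after their values were seen.

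The pseudogene symbols were at very low levels. Mrpl23-ps1 was at 49.3, 24.9 and 31.2 normalized counts in Mfn1-/- at day +8 and at 9.96, 7.45 and 6 in WT (log2 fold change 2.00 ± 0.54, limma adjusted p = 0.00195). Because it resembles Mrpl23, reads may be split between the 2 genes, and the value is uncertain. Mrps36-ps1 had 82 reads over the 36 libraries and no library with 10 normalized counts or more, so it was not tested.

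Before day +8 the members differed little between Mfn1-/- and WT. At day -2 the summed level was 2856, 3030 and 2828 RPM in Mfn1-/- and 3302, 3292 and 2785 in WT, so the groups overlapped. No member was called higher and 3 were called lower, where 9.98% of all genes were lower, and the median log2 fold change was −0.06. With only the 6 libraries of day -2 in the fit, none was higher, where 12.0% of all genes were. In that fit 4 were lower, where 9.25% of all genes were. Mrpl54, a mitochondria-specific large-subunit protein, was at 545, 701 and 450 against 979, 1030 and 819 normalized counts (−0.75 ± 0.22, limma adjusted p = 0.00819). Mrps27 was at 456, 471 and 470 against 777, 809 and 640 (−0.66 ± 0.17, limma adjusted p = 0.00302). Mrpl9, a large-subunit protein with a bacterial counterpart, was at 816, 947 and 764 against 1287, 1366 and 1227 (−0.62 ± 0.15, limma adjusted p = 0.00152). For these 3 the groups did not overlap, although leaving out single libraries took the number called between 0 and 3.

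At day 0, when the cocktail was added, 2 members were higher and none lower, where 10.7% of all genes were higher, and the median was 0.04. With only the 6 libraries of day 0 in the fit, 2 were higher, where 12.4% of all genes were. In that fit 1 was lower, where 12.1% of all genes were. Mrpl17, which lies near the exit tunnel of the large subunit, was at 1065, 1223 and 1544 in Mfn1-/- against 753, 694 and 806 in WT (log2 fold change 0.75 ± 0.14, limma adjusted p = 0.000123). Mrps31, a mitochondria-specific small-subunit protein, was at 645, 655 and 723 against 484, 487 and 456 (0.50 ± 0.14, limma adjusted p = 0.00518). The groups did not overlap in either gene, but the call of Mrps31 was lost in 5 of the 6 fits that left out 1 library, with limma adjusted p up to 0.0295.

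At day +3 the number higher was 8 of 78, where 10.6% of all genes were higher, and none was lower; the median log2 fold change of the members was 0.27, with 66 of 78 above 0. The summed levels overlapped, at 5519, 3532 and 4288 RPM in Mfn1-/- and 4370, 2901 and 4086 in WT. Compared by replicate letter, the Mfn1-/- library was above the WT library in each of A, B and C. Mrpl23, which sits at the mouth of the exit tunnel, was at 141, 156 and 93.8 against 61.1, 64.2 and 61.8 normalized counts (1.02 ± 0.20, limma adjusted p = 0.000157). Mrpl17 was again higher, at 1755, 1170 and 1210 against 968, 697 and 808 (0.73 ± 0.14, limma adjusted p = 0.000175). Mrps31 was at 751, 581 and 886 against 551, 416 and 546 (0.54 ± 0.14, limma adjusted p = 0.00264), with groups that did not overlap. The other 5 called were Mrpl15, Mrpl34, Mrps14, Mrps17 and Mrps33.

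The day +3 count depended on the libraries used. Library B was the lowest of both lines at that day, and against the WT mean the median member was at 0.57 in Mfn1-/- library A, −0.06 in B and 0.34 in C on the log2 scale. Without Mfn1-/- library B 15 members were called, and without Mfn1-/- library A or without WT library B only 2 were. The replicate letters paired the libraries at day +3, and with the letter as a block 2 members were called. The share of all genes called in these fits is not given here. With only the 6 libraries of day +3 in the fit none was called, where 2.87% of all genes were higher and 3.18% were lower.

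**Figure D3:**
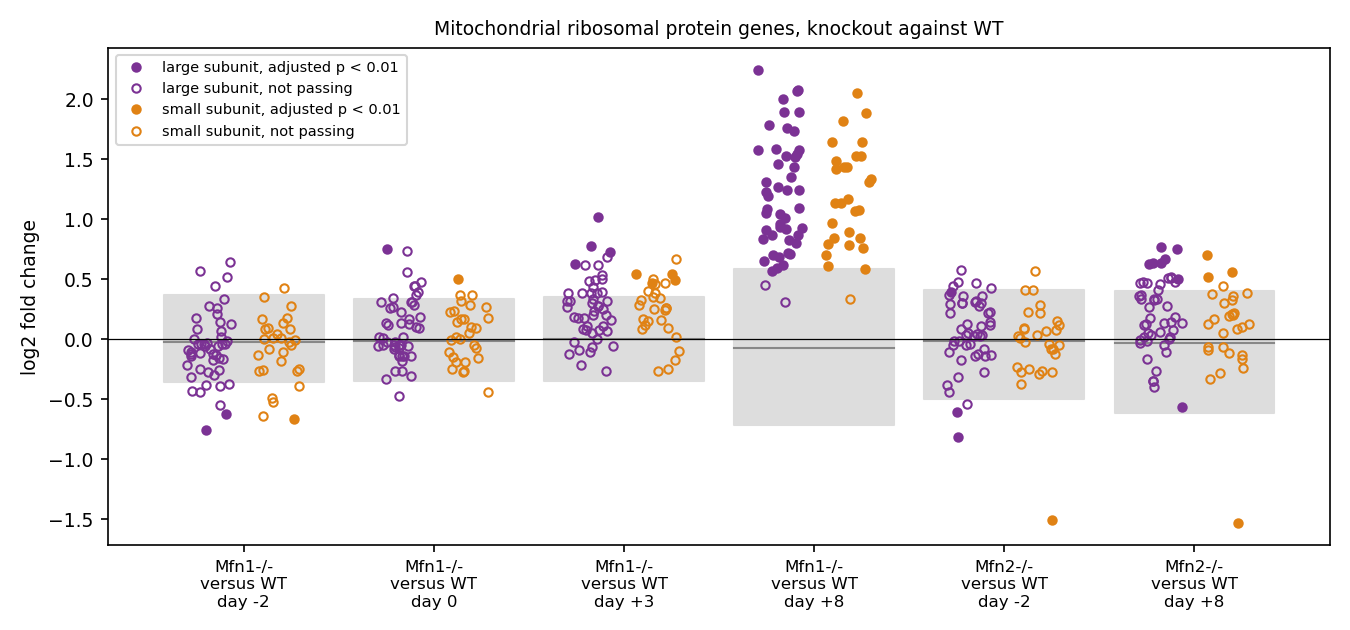
Log2 fold change of each member in the 6 comparisons of a knockout with its WT. Each point is 1 member, filled points passed at an adjusted p under 0.01, and the grey bar gives the interquartile range and median of all 14293 genes tested. The members' medians are −0.06, 0.04, 0.27 and 1.14 for Mfn1-/- at day -2, 0, +3 and +8, and 0.04 and 0.17 for Mfn2-/- at day -2 and +8.

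Differentiation itself was followed within each line on values rescaled across days by the trimmed mean of M values (TMM). In Mfn1-/- MEFs no member was called between day -2 and day 0 (2 at an unadjusted p under 0.05, none with DESeq2), where 0.112% of all genes were called in either direction, and the median was −0.08. From day 0 to day +3 45 members rose, where 8.71% of all genes did, with a median of 0.63. From day +3 to day +8 another rise was called for 38 members, where 17.4% of all genes rose, with a median of 0.56. Over the whole course from day -2 to +8 72 of 78 rose and none fell, where 20.8% of all genes rose, with a median of 1.08.

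Mrps6, of the platform of the small subunit, was at 1695, 1485 and 2299 rescaled counts at day +8 and 419, 433 and 347 at day -2 in Mfn1-/- MEFs, a log2 fold change of 2.17. Mrpl12 was at 5013, 3132 and 2714 against 812, 993 and 828 (2.00). Mrpl55, a mitochondria-specific large-subunit protein, was at 955, 566 and 563 against 171, 174 and 158 (2.00), and its log2 fold change from day +3 to +8 alone was 1.29. From day 0 to day +3 Mrps28 of the small subunit went from 97.1, 78.2 and 129 to 379, 244 and 255 (1.52), and Mrpl4, which lines the exit tunnel, rose by 1.41. In the second interval Mrps34, a mitochondria-specific small-subunit protein, rose by 1.22.

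In WT MEFs few members were called between any of the days, and the change from day 0 to +3 was not tested between the lines. In libraries A to C no member was called from day -2 to 0 (13 at an unadjusted p under 0.05, none with DESeq2), where 2.86% of all genes were called in either direction, with a median of −0.22. From day 0 to +3 7 rose, where 4.03% of all genes did, with a median of 0.42. Mrps28 went from 107, 122 and 122 to 283, 200 and 244 rescaled counts (log2 fold change 1.03) and Mrpl4 from 321, 299 and 294 to 809, 439 and 671 (1.02), calls that were lost in 6 and 7 of the alternatives. From day +3 to +8 4 fell, where 2.43% of all genes did, with a median of −0.37. Mrpl11 dropped from 849, 511 and 787 to 428, 472 and 408 (−0.68), and Mrpl18, of the central protuberance of the large subunit, changed by −0.60, and each of these calls was lost in 8 of the alternatives. From day -2 to +8 only Mrpl54 fell, where 7.29% of all genes did: from 856, 901 and 713 to 524, 470 and 326 (−0.92 ± 0.22, limma adjusted p = 0.00247).

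The number called between days depended on the scale and on single libraries. On the authors' scale 5 rather than 45 members rose from day 0 to +3 in Mfn1-/- and 1 rather than 7 in WT. On that scale more members fell in WT, 26 rather than 4 from day +3 to +8 and 17 rather than 1 from day -2 to +8, the latter with a median of −0.44. With only the 6 libraries of a comparison in the fit, 2 members were called in Mfn1-/- from day 0 to +3 and none from day +3 to +8, and none was called in WT over either interval. Leaving out 1 library at a time gave 9 to 60 in Mfn1-/- and 1 to 36 in WT. From day +3 to +8 the count in Mfn1-/- ran from 19 without its day +8 library A to 50, and that in WT from 0 to 23. For these alternatives the share of all genes called is not given here.

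By the median, WT libraries D to F changed even less, at −0.01 between day -2 and +8. Mrps18a alone was called higher, where 12.8% of all genes were higher, at 762, 696 and 781 rescaled counts against 547, 462 and 539 (log2 fold change 0.53, limma adjusted p = 0.00606). With only the 6 libraries of this comparison in the fit 15 members were called, and the share of all genes in that fit is not given here. In Mfn2-/- MEFs the median was 0.16, with 3 members higher, where 9.52% of all genes were higher, and 1 lower, where 8.08% were lower. Mrpl52, a mitochondria-specific large-subunit protein, went from 370, 419 and 470 to 746, 630 and 708 (0.73). Mrpl30 went from 757, 785 and 754 to 1075, 1171 and 1206 (0.59), and Mrps18a rose by 0.55. Mrpl49 moved the other way, from 1369, 1471 and 1437 to 1070, 832 and 987 (−0.57). The groups of these genes did not overlap. The call of Mrps18a in Mfn2-/- was lost whichever library was left out (limma adjusted p = 0.0116 to 0.0336), and so was that in WT D to F, while those of Mrpl52 and Mrpl30 were each lost in 4 of the 6 such fits.

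The response from day -2 to +8 was compared between a knockout and its WT in the same model, on the authors' scale. It was larger in Mfn1-/- than in WT for 70 of 78 members and smaller for none, where 12.0% of all genes had a larger response. The median difference was 1.24 on the log2 scale. Mrps34 differed by 2.30 and Mrpl12 by 2.19. For Mfn2-/- against WT no member differed in its response (8 at an unadjusted p under 0.05, none with DESeq2), where 15.5% of all genes did in either direction, and the median difference was 0.15.

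In Mfn2-/- MEFs the family as a whole lay close to WT. The summed level at day -2 was 3625, 3795 and 3749 RPM in Mfn2-/- and 3381, 3372 and 3378 in WT D to F. At day +8 it was 4278, 3904 and 3951 against 3435, 3323 and 3733. The groups did not overlap at either day, but the distance was a small part of that seen for Mfn1-/- at day +8. At day -2 1 member was higher, where 16.4% of all genes were, and 3 were lower, where 19.1% were. At day +8 10 were higher, where 17.1% of all genes were, and 2 were lower, where 21.0% were. The median log2 fold change was 0.04 and 0.17. With only the 6 libraries of a comparison in the fit, whose spread was then estimated without the other groups, 22 members were higher and 13 lower at day -2 and 24 were higher and 5 lower at day +8, where 26.9%, 29.2%, 26.0% and 28.8% of all genes were called in the same order. With all 6 WT libraries of the day as the reference, 25 members were called at day +8, and the share of all genes is not given for that fit.

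Mrps6 was the member that fell most in Mfn2-/- MEFs, at both days. It was at 142, 141 and 146 normalized counts in Mfn2-/- and 423, 411 and 390 in WT at day -2 (log2 fold change −1.51 ± 0.22, limma adjusted p = 8.85e-07). At day +8 it was at 174, 143 and 138 against 438, 373 and 509 (−1.53 ± 0.22, limma adjusted p = 7.44e-07). In Mfn1-/- at day +8 it was at 1635, 1403 and 2214 against 516, 659 and 759 (1.43 ± 0.22). The gene Slc5a3, which encodes a myo-inositol transporter, lies within Mrps6 on the same strand, and it overlaps 19.9% of the exon bases of Mrps6 together with Gm49711. Slc5a3, named after its values were seen, had log2 fold changes of −1.78 in Mfn2-/- at day -2, −1.05 at day +8 (limma adjusted p = 0.0109) and 0.88 in Mfn1-/- at day +8 (limma adjusted p = 0.0252). Reads of the 2 genes may not be separable, and the values of Mrps6 are uncertain for that reason.

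Among the large-subunit members of Mfn2-/- MEFs, Mrpl3 was lower at both days. This core protein was at 403, 452 and 464 against 681, 646 and 681 normalized counts at day -2 (log2 fold change −0.61 ± 0.16, limma adjusted p = 0.00273) and at 521, 439 and 405 against 633, 648 and 734 at day +8 (−0.57 ± 0.16, limma adjusted p = 0.00465). Leaving out 1 library took the adjusted p to at most 0.018 and 0.0311 at these days, and all 6 WT libraries as the reference gave −0.38 at day +8 (limma adjusted p = 0.0374), so the call was lost at both days. Mrpl33 was lower at day -2, at 200, 179 and 199 against 335, 365 and 319 (−0.81 ± 0.20). Mrpl49 was the only member higher at day -2, at 987, 1058 and 1033 against 724, 788 and 832 (0.39 ± 0.11, limma adjusted p = 0.00365), and with all 6 WT libraries of the day as the reference it was at 0.24 and did not pass (limma adjusted p = 0.0797).

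At day +8 the largest rise in Mfn2-/- was 0.77 on the log2 scale. Mrpl1 was at 379, 396 and 351 against 207, 238 and 215 normalized counts (0.77 ± 0.17), Mrpl52 at 561, 477 and 538 against 331, 307 and 294 (0.76 ± 0.18), and Mrps9, a small-subunit core protein, at 635, 684 and 671 against 385, 371 and 471 (0.70 ± 0.13). The other 7 that rose were Mrpl2, Mrpl11, Mrpl14, Mrpl28, Mrpl30, Mrps16 and Mrps35. Mrpl11 was at 633, 653 and 513 against 388, 377 and 388. Mrpl12, by contrast, was at 1340, 1235 and 1039 against 907, 838 and 1131 (0.33, not called), with groups that overlapped.

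The knockout effects of the lines were compared with each other, a comparison added after the data had been seen. At day +8 the effect was larger in Mfn1-/- than in Mfn2-/- for 52 members and smaller for none, where 18.9% of all genes had a larger effect, with a median difference of 1.05 on the log2 scale. Mrps6 differed by 2.96 ± 0.31 (limma adjusted p = 2.90e-09) and Mrps34 by 1.95. At day -2 only Mrpl28, a large-subunit protein with a bacterial counterpart, was called, in the lower direction, where 8.61% of all genes were lower. It was at 1096, 1229 and 1262 in Mfn1-/- against 1681, 1778 and 1414 in WT A to C, and at 1281, 1347 and 1180 in Mfn2-/- against 902, 940 and 896 in WT D to F. The difference was −0.91 (limma adjusted p = 0.00496), and it did not pass in 7 of the alternatives.

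Large and small subunits moved together at day +8 in Mfn1-/- MEFs. Of large-subunit names 47 of 49 were higher, with a median log2 fold change of 1.09, and of small-subunit names 28 of 29, with a median of 1.14. The ratio of large-subunit to small-subunit reads, which needs no scaling between libraries, was 2.11, 2.00 and 2.00 in Mfn1-/- and 2.04, 2.07 and 2.04 in WT, so the groups overlapped. At day -2 they did not, at 2.11, 2.16 and 2.12 in Mfn1-/- against 2.19, 2.21 and 2.22 in WT. The WT D to F libraries of that day were at 2.03, 2.12 and 2.07, so the 2 WT sets did not overlap either. Taken as a mean of log2 values, the log2 change of the ratio at day -2 was 0.0049. With subunits assigned by structure instead of by name the ratio was also lower without overlap in Mfn1-/- at day -2, at 2.43 to 2.48 against 2.53 to 2.60, and at day +3, at 2.32 to 2.37 against 2.44 to 2.63. At day +3, 4 of 49 large-subunit names and 4 of 29 small-subunit names were higher, around the 10.6% of all genes, with medians of 0.27 and 0.26.

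In Mfn2-/- MEFs the ratio was higher than in WT at both days without overlap, at 2.29, 2.28 and 2.25 against 2.03, 2.12 and 2.07 at day -2 and at 2.29, 2.18 and 2.21 against 2.04, 2.04 and 2.01 at day +8. At day -2 the WT A to C libraries, at 2.19 to 2.22, lay between these groups. With Mrps6 left out, an alternative added after the data were seen, the groups still did not overlap, at 2.28 to 2.32 against 2.11 to 2.20 and at 2.21 to 2.32 against 2.09 to 2.12. At day +8 7 large-subunit names were higher and 1 lower, and 3 small-subunit names were higher and 1 lower, with medians of 0.19 and 0.13. These shares are at or below those of all genes, of which 17.1% were higher and 21.0% lower.

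**Figure D4:**
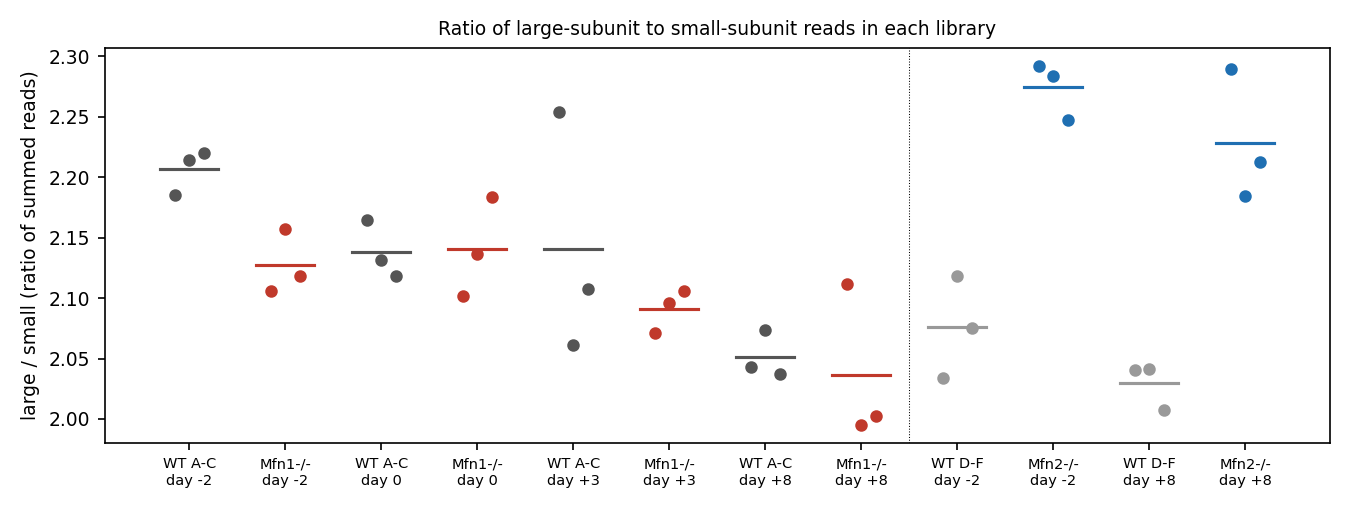
Ratio of the reads on large-subunit members to those on small-subunit members in each library, by line and day, with group means as bars. The Mfn2-/- libraries, at 2.18 to 2.29, lie above the WT D to F libraries of their day, at 2.01 to 2.12. Mfn1-/- and WT A to C overlap at day +8, and Mfn1-/- lies lower at day -2. At day -2 WT A to C also lies above WT D to F.

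Other parts of the mitochondrial translation machinery were read from lists chosen with earlier results of these data known. At day +8 in Mfn1-/- all 5 mitoribosome subunits with other names were higher (median log2 fold change 1.11), including Dap3 at 3586, 2319 and 1990 against 1113, 1213 and 1060 normalized counts and Gadd45gip1 at 1254, 923 and 806 against 438, 425 and 401. Of 26 assembly and rRNA factors 16 were higher and none was lower (median 0.95). Of 17 translation factors 13 were higher and 1 lower (median 0.79). Over all genes 23.5% were higher and 26.7% lower in this comparison. The largest rises were those of Rpusd3 and Tufm. Rpusd3, a mitochondrial pseudouridine synthase, was at 568, 382 and 287 against 91.4, 92.2 and 66.7 (2.25). Tufm, the elongation factor that brings aminoacyl-tRNA, was at 1867, 1307 and 1193 against 426, 375 and 380 (1.86). Mtrf1l, a release factor, was lower at 98.5, 89.3 and 140 against 167, 159 and 142 (−0.53). Of the 92 cytosolic ribosomal proteins tested 70 were higher and 4 lower, with a median of 0.77.

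In Mfn2-/- MEFs at day +8 these lists differed in direction, where 17.1% of all genes were higher and 21.0% lower. Of the cytosolic ribosomal proteins 56 of 92 were higher and 5 lower (median log2 fold change 0.65), of the assembly factors 2 were higher and 5 lower (median −0.20), of the subunits with other names 2 were higher and none lower (0.23), and of the translation factors 1 was higher and 2 lower (−0.13). Chchd1, a small-subunit protein, was at 909, 853 and 754 against 422, 391 and 385 normalized counts (1.07), and Fastkd2, an RNA-binding assembly factor, at 275, 283 and 269 against 180, 181 and 185 (0.60). Gtpbp10, a GTPase that assembles the large subunit, was at 23.97, 29.95 and 43.03 against 152, 162 and 147 (−2.25), and Mterf4, which helps to join the subunits, at 144, 125 and 141 against 374, 358 and 407 (−1.47).

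At day -2 Gtpbp10 differed in opposite directions in the 2 lines. In Mfn2-/- MEFs it was at 13.8, 23.6 and 7.44 normalized counts against 134, 132 and 110 (log2 fold change −3.11), and in Mfn1-/- MEFs at 301, 255 and 325 against 148, 145 and 139 (1.02). In Mfn1-/- it was also higher at day 0 (1.02) and day +3 (0.98). Rbfa, which matures the small subunit, was lower at day -2 in both lines, by −0.79 in Mfn2-/- and −0.63 in Mfn1-/-. Eral1, an rRNA chaperone of the small subunit, and Mtif3, an initiation factor, were higher in Mfn2-/- at day -2, by 0.72 and 0.50. Lrpprc, which stabilizes mitochondrial mRNA, was lower in Mfn1-/- at day -2 and day 0, by −0.68 at each. Trmt61b, a methyltransferase of the mitochondrial rRNA, was higher in Mfn1-/- at day +3 (0.98). Of cytosolic ribosomal proteins 34 of 92 were lower and 1 was higher in Mfn2-/- at day -2, and of 26 assembly factors 6 were lower and 2 higher, where 19.1% of all genes were lower and 16.4% higher.

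Levels between genes were compared per exon length, as RPM scaled to a kilobase of exon (RPKM). In WT A to C at day -2 the highest members were Mrpl28 at 74.7 ± 9.48 (SD, n = 3), Mrpl54 at 72.5 ± 9.28 and Mrps21, a small-subunit protein with a bacterial counterpart, at 61.0 ± 6.30. The ranges of these 3 over their libraries overlapped, as did those of Mrpl23-ps1 with Mrps36-ps1 and Mrpl23, the lowest. The lowest levels were those of Mrps36-ps1 at 0.74 ± 0.15, Mrpl23-ps1 at 0.89 ± 0.29 and Mrpl23 at 1.02 ± 0.05. Mrpl12 stood at 46.8 ± 6.74 RPKM there and at 161 ± 43.2 in Mfn1-/- at day +8.

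Across the 36 libraries most members varied together. The correlation of each member's log2 RPM with the mean of the others had a median Pearson r of 0.81 and was highest for Mrpl12 (0.97), Mrps24 (0.94) and Mrpl51 (0.93). It was lowest for Mrps36-ps1 (0.11), Mrps2 (0.22) and Mrpl49 (0.28). The libraries share line, day and depth, so this is a description only.

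Many members have a neighbour whose gene starts close by on the opposite strand, and the values of these neighbours at day +8 are given beside those of the members. Of the 77 coding members, 33 (42.9%) lay head to head with another gene at no more than 1000 bases between the starts, against 16.5% of 12546 protein-coding genes tested. The 29 tested partners outside the family had a median log2 fold change of 0.18, with 8 higher (27.6%) and 6 lower (20.7%), where 23.5% of all genes were higher and 26.7% lower. Ndufs6 and Ndufb5, both subunits of respiratory complex I, were higher by 1.57 and 1.70, as were Tmem63b, Cyb5rl, Twnk, Fau, Apba3 and Ptcd2. Ncapd2, a condensin subunit that shares its start region with Mrpl51, was at −1.06, and Eme2, a DNA repair nuclease subunit, was at 29.0, 44.1 and 48.8 against 158, 171 and 103 normalized counts (−1.80). Mtbp, Eme1, Ska3 and Helq were the other 4 that fell, Eme1 being the partner of Mrpl27. These partners were named after their values were seen. Mrpl46 and Mrps11 are each other's partner.

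**Figure D5:**
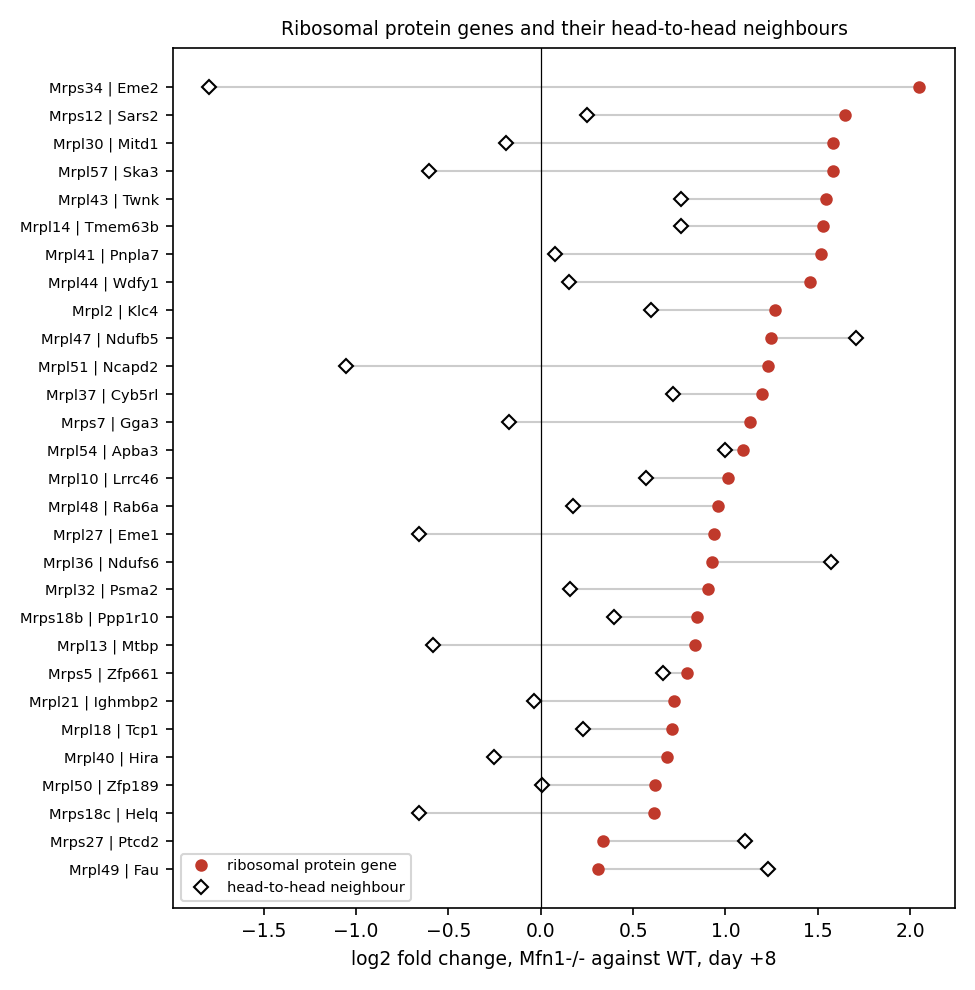
Log2 fold change, Mfn1-/- minus WT at day +8, on the horizontal axis, with each pair on its own row. Filled circles are members, and open diamonds are the 29 tested genes outside the family that start head to head with them. All members are above 0, whereas the neighbours have a median of 0.18, with 8 called higher and 6 called lower.

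Overlap on the opposite strand also bears on the counts, since the strand setting of the counting is not given in the sources used here. A gene on the opposite strand overlaps 27 of the 79 members. Without them, an alternative added after the data were seen, 50 of 51 tested members were higher in Mfn1-/- at day +8, with a median of 1.27. Of all genes 23.5% were higher in that comparison. Mrps34 overlaps same-strand Nme3 over 37.0% of its exon bases and is uncertain. It was at 1353, 773 and 579 normalized counts in Mfn1-/- at day +8 against 228, 206 and 180 in WT.

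Other RNAs moved with the members, and their part in the result was not tested. Markers that were listed but not used here were absent from the deposited genes. Of the 8 adipocyte markers listed, 4 were used here (Fabp4, Lpl, Pparg and Slc2a4), and they summed to 161842 to 182888 normalized counts in Mfn1-/- at day +8 against 10902 to 14079 in WT A to C. In WT D to F they went from 159 to 173 at day -2 to 20428 to 40954 at day +8, while the members' median between those days was −0.01. In Mfn2-/- they stood at 1293 to 1520 at day -2 and at 1388 to 1556 at day +8, where Pparg was at or near 0. The markers differed in direction at day -2, with Lpl at a mean of 1378 in Mfn2-/- against 79.3 in WT D to F. Fabp4 was at 0 there against 17.6. The 4 proliferation markers summed to 10564 to 11505 in Mfn1-/- and 14513 to 17519 in WT at day +8, and to 21718 to 24655 in Mfn2-/- against 12025 to 12782. Of 8 fibroblast markers 7 were used here, at 295639 to 539414 in WT A to C at day +8. The 6 mesothelial markers summed to 32533 to 36342 in Mfn2-/- against 1310 to 1370 in WT at day -2, and to 14372 to 14819 against 254 to 343 at day +8. Not all of them rose: at day -2 Msln was at a mean of 1046 in Mfn2-/- against 1266 in WT D to F and was not called. Krt19 was at 3385 against 75.7 and Lrrn4 at 3364 against 0. Of 3 immune markers 1 was used here, Cd68 of macrophages, at 146, 159 and 238 in Mfn1-/- against 32.58, 27.02 and 30.67 in WT A to C at day +8, without overlap. Of 3 endothelial markers 1 was used, Kdr, at 681 to 690 in Mfn2-/- against 0 to 2.92 in WT D to F at day -2, at 244 to 467 against 0 to 1.90 at day +8, and at 1.04 to 13.0 in Mfn1-/- against 1.86 to 6.34 in WT A to C at day +8. In such bulk samples a changed number of cells of a type and a changed amount of RNA per cell cannot be told apart.

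Mfn1-/- library A held the highest member values at day +8, with a median member 1.54 above the WT mean on the log2 scale, against 1.05 in B and 0.84 in C. Without it 65 of 78 members were higher, with a median of 0.92, and the response from day -2 was larger than that of WT for 57. With only the 6 libraries of the comparison in the fit 59 were called, where 14.8% of all genes were higher, and with the replicate letter as a block 70. For the fits without library A and with the block, the share of all genes called is not given.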

How the data were processed

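RNA of 36 cultures was sequenced after poly-A selection, and the authors trimmed reads with cutadapt, used STAR for alignment to GRCm38, SAMtools for sorting and featureCounts for the counts per gene. Versions and the strand setting are not given in the sources used here. The deposited signal values are counts that the authors divided by 1 factor per library, set separately for 6 blocks of 6 libraries (a knockout and its WT at 1 day). Dividing by each column's step gave whole reads for 100% of values within 0.01 reads. The table's 16623 lines hold 19 symbols in repeated identical lines, which were merged to 14761 genes. Total reads per library were 8800674 to 37011894, and this depth limits the precision of low members only.

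A pseudocount of 1 was added to the normalized counts before the log2 step. Genes reaching 10 in 3 or more libraries (14293) entered a single limma 3.58.1 fit (R 4.3.3, trend and robust) of 12 group means. Benjamini-Hochberg adjustment ran over all of them, and called means adjusted p under 0.01. The authors' scale served for each knockout against its WT, and TMM rescaling (edgeR 4.0.16) for differences between days. Alternatives were DESeq2 1.42.0 and edgeR's quasi-likelihood test on the recovered reads, other pseudocounts, filters and scales, all 6 WT libraries, only the libraries of a comparison, a replicate block and each library left out in turn.

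Groups came from the labels. Because the Mfn2-/- columns are lettered A to C and their labels D to F, those libraries were placed in their group without pairing. For Mfn1-/- and WT A to C the labels share letters but do not say that a letter marks a shared experiment. The correlation of same-letter deviations from the group means was 0.30, 0.42 and 0.54 at day +3 and 0.20, 0.19 and 0.29 at day +8, so the letters were taken to pair the libraries there. At day -2 and 0 at least 1 letter stayed under 0.1.

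Members given with values are the called ones with the 3 largest rises and 3 largest falls for every knockout against WT and for day +8 against -2 (2 otherwise), provided that groups did not overlap and the higher one averaged 100 or more, together with members fixed for their role, the highest and lowest per length, and pseudogene symbols. Up to 2 rises and 2 falls of the other lists were named per knockout. The members and lists were chosen with earlier results of these data known. All 79 members matched GENCODE vM21, which gave exon lengths, overlaps and starts. The comparison of the 2 knockout effects was added after the data were seen.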

Additional observations from a re-analysis of the deposited data

Results flagged for a closer look

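The difference between lines was itself tested for 3 results. The response from day -2 to +8 was larger in Mfn1-/- than in WT for 70 of 78 members, where the test was the interaction of line and day in limma. The knockout effect at day +8 was larger in Mfn1-/- than in Mfn2-/- for 52 members, and at day -2 it differed for 1, Mrpl28, in the lower direction. The lines have their own WT libraries, which were scaled apart from each other.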

How the results depend on the processing

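The rise in Mfn1-/- at day +8 kept its direction under every alternative run, with 59 to 77 of 78 members called and 65 to 74 when single libraries were left out. Counts of members called elsewhere moved with the pooling of the spread and with single libraries, for which the cause was not tested. The counts in this section are given without the share of all genes called in the same fit. Of the alternative values of named members, 1470 kept direction and side of the threshold, 115 no longer passed, 10 newly passed, 31 uncalled ones changed sign and no called one did.

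With the replicate block, which needs the 24 libraries of WT A to C and Mfn1-/-, the members called for Mfn1-/- against WT were 0 at day -2, 1 at day 0 and 2 at day +3, and between days 2 (day +3 against 0) and 1 (+8 against +3) in WT and 19 (+3 against 0) in Mfn1-/-. The same 24 libraries without the block gave 1, 1 and 2 against WT, 1, 0 and 0 in WT (+3 against 0, +8 against +3, +8 against -2) and 13 in Mfn1-/- (+3 against 0). Same-letter correlations were 0.04 to 0.22 at day -2 and 0.07 to 0.16 at day 0, so the letters were not taken as pairs there. No paired analysis was possible for Mfn2-/- because its columns carry other letters than its labels. The block changed no other count by more than 1.5 times.

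DESeq2 called 5 members for Mfn1-/- against WT at day -2, 17 and 7 in WT (+3 against 0, +8 against +3), and 2 for the difference of knockout effects at day -2. All 6 WT libraries of the day with TMM gave 8 called for Mfn1-/- at day -2 (median −0.19) and 25 for Mfn2-/- at day +8 (median 0.34), with a median of 0.096 for Mfn2-/- at day -2. With only the libraries of a comparison in the fit the counts were 0 (Mfn1-/- against WT, day +3), 35 and 29 (Mfn2-/- against WT, day -2 and +8), 1, 0, 0 and 2 in WT A to C (0 against -2, +3 against 0, +8 against +3, +8 against -2), 2 and 0 in Mfn1-/- (+3 against 0, +8 against +3), 15 in WT D to F, 15 in Mfn2-/-, 11 for the response of Mfn2-/- against WT and 12 for the difference of knockout effects at day -2.

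On the authors' scale, which was set apart for each day, WT A to C had 1, 26 and 17 called (+3 against 0, +8 against +3, +8 against -2) and Mfn1-/- 5 (+3 against 0). The medians were then 0.079, 0.043 and −0.44 in WT A to C (0 against -2, +3 against 0, +8 against -2), 0.22, 0.21 and 0.77 in Mfn1-/- for the same pairs of days, 0.10 in WT D to F and 0.23 in Mfn2-/-. Without members overlapped on the opposite strand, an alternative added after the data were seen, the median difference of knockout effects at day -2 was −0.057. The log2 change of the large to small ratio, taken as a mean of log2 values, was 0.0049 and 0.035 for Mfn1-/- at day -2 and 0, 0.10 for Mfn2-/- at day -2 and −0.070 in WT A to C (+8 against -2). With subunits assigned by structure it was −0.033, −0.089 and −0.059 for Mfn1-/- at day 0, +3 and +8 and −0.083 in WT A to C. The summed level of Mfn2-/- against WT at day -2 was 0.059 after TMM and 0.11 as a mean of log2 values, and that of WT D to F between days was −0.034 after TMM.

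Leaving out 1 library at a time, members called ranged over 0 to 3 at day -2 (median −0.16 to −0.0019), 1 to 2 at day 0 and 2 to 15 at day +3 for Mfn1-/- against WT, and over 2 to 3 (median 0.018 to 0.063) and 6 to 8 for Mfn2-/- at day -2 and +8. Between days they ranged over 1 to 36, 0 to 23 and 0 to 1 in WT A to C (+3 against 0, +8 against +3, +8 against -2), 9 to 60 and 19 to 50 in Mfn1-/- (+3 against 0, +8 against +3) and 1 to 3 in Mfn2-/-. In WT D to F the call of Mrps18a was lost each time, leaving 0 (median −0.064 to 0.00996). For the difference of knockout effects at day -2 they were 0 to 1 (median −0.21 to −0.091).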
